A study of Mus musculus with 6 samples.

Results

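The 10 genes described here act on microtubules and on the growing tips of neurites, and their RNA was followed in cortical cells, labelled as oligodendrocyte precursor cells, of mice with the cilium gene Ift88 floxed on both alleles or on 1. The 10 genes were chosen by name, out of 55416 genes in the count files, and each was found under 1 gene identifier. They are the stathmins Stmn1, Stmn2, Stmn3 and Stmn4, the growth cone genes Gap43 and Dpysl3, the microtubule-associated protein genes Map1b, Map2 and Mapt, and the doublecortin gene Dcx. The Ift88 cKO group held 3 libraries of genotype Pdgfra-Cre, Ift88 fl/fl, RosaEYFP, and the Ift88 control group held 3 libraries of genotype Pdgfra-Cre, Ift88 fl/wt, RosaEYFP. By genotype, control mice kept 1 wild-type copy of Ift88 and carried the same Cre and the same EYFP reporter as the cKO mice. Cre was driven by Pdgfra, the growth factor receptor gene of the precursor cells. Each library pooled cortical cells of 4 to 6 mice at postnatal day 11, so the p-values below measure the spread between pools.

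Microtubules are polymers of tubulin that grow and shrink inside an extending neurite. Stathmins bind free tubulin and favour disassembly, while microtubule-associated proteins and doublecortin bind the polymer and stabilise it. Growth cone proteins such as that of Gap43 sit under the membrane of the neurite tip and link signals to the cytoskeleton. In young cortex these genes are best known from neurons that migrate or extend axons, and some of them, Gap43 and the tau gene Mapt included, have also been described in cells of the oligodendrocyte lineage.

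Total counts ran from 11773548 to 13909236 in 5 libraries, and cKO replicate 2 held 568509. That library had a count in 3651 genes, against 14047 to 16252 genes in the other 5. The fits of the 10 genes are therefore given with and without it. Levels are in CPM, the count of a gene per 1000000 counts of its library. A gene with no count could still be present at up to 5.28 CPM in cKO replicate 2 and at up to 0.216 to 0.255 CPM in the rest (3 counts of the total). The make-up of cKO replicate 2 also differed, with the choroid plexus gene Ttr at 45940 CPM, against 376 and 574 CPM in the other cKO libraries and 0.147 to 25.1 CPM in the controls, so its values may not stand for the cKO group. The labelled cell type was only partly borne out by its markers. Pdgfra, the gene of the Cre driver, had 11.1, 0 and 10.3 CPM in cKO replicates 1 to 3 and 0, 4.63 and 4.13 CPM in control replicates 1 to 3. The genes Sox10, Tnr, Pcdh15, Neu4, Rlbp1, Gpr17, Bcas1 and Nkx2-2, 8 of 21 precursor markers, were at 0 in all 6 libraries, and Olig1 and Olig2 had counts (32 and 67) in cKO replicate 3 only. Ift88 itself had 1, 0 and 305 counts in cKO replicates 1 to 3, against 143, 32 and 167 counts in control replicates 1 to 3. Its 3' tag may lie outside the floxed exons, so this does not check the genotypes.

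None of the 10 genes shared any of its last 500 exon bases with another annotated gene. A near-identical copy touched 1 member. Of the 50-base stretches in the last 500 bases of Stmn1 transcripts, 33% also occurred in Gm11223, a processed pseudogene in GENCODE M21, and the counting command named no option to keep reads that map to several places. Gm11223 had 1635, 0 and 884 counts in cKO replicates 1 to 3 and 1327, 1286 and 709 counts in control replicates 1 to 3. In the 5 deeper libraries these counts were above those of Stmn1 in the same library, so the level of Stmn1 is uncertain. The share was 0.942% for Dcx, 0.414% for Map2 and 0% for the other 7 genes.

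The start regions of 4 of the 10 genes were matched in RefSeq on the mouse build GRCm38.p6. Dpysl3 was left out of the matching because of its chromosome, so whether its start region could be matched was not tested. Without cKO replicate 2, cKO and control levels did not overlap for Dcx and Map1b, and overlapped for Stmn3 and Map2. These levels played no part in the choice of the start regions. Each runs 5′ to 3′ on the gene's strand from 250 bases before to 50 bases after the annotated start. Capitals mark matches on either strand to TATAAA (letters of the TATA box), GGGCGG (a GC box) or CAGATG (an E-box). The last is the core bound by factors such as those of the Neurod genes.
Dcx, chrX:143933170-143933469, minus strand: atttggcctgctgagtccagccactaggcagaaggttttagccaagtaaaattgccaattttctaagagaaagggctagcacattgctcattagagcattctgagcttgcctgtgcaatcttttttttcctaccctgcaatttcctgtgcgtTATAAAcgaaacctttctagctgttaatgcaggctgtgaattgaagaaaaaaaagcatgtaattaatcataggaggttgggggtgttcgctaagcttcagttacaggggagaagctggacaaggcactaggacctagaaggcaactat
Map1b, chr13:99516553-99516852, minus strand: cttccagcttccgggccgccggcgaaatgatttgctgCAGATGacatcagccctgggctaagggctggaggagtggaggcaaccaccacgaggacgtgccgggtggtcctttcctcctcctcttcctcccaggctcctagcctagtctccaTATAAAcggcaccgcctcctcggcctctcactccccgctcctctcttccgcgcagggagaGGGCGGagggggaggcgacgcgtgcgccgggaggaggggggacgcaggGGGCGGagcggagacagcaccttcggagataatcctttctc
Stmn3, chr2:181314451-181314750, minus strand: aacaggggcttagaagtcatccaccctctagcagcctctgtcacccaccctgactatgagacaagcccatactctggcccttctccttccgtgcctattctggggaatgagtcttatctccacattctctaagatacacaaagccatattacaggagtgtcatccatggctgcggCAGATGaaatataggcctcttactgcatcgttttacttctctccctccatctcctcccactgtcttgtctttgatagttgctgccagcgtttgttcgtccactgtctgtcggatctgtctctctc
Map2, chr1:66175079-66175378, plus strand: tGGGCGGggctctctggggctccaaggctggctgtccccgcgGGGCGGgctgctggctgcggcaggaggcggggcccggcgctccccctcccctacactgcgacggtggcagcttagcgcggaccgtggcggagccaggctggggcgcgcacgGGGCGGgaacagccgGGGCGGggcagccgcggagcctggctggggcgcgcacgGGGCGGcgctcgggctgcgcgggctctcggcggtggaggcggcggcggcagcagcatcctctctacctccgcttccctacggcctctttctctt
The Dcx window held 1 TATAAA match and 3 CpG pairs at 43% G and C. The Map1b window held 1 TATAAA match, 2 GC boxes and 1 E-box, with 23 CpG pairs at 65.7% G and C. Stmn3 had 1 E-box at 49.7% G and C with 6 CpG pairs, and Map2 had 5 GC boxes at 77.7% G and C with 37 CpG pairs. Over all 32544 windows of the same length, 13.6% held TATAAA, 35.9% GGGCGG and 17.1% CAGATG, and the median was 53% G and C with 7 CpG pairs. CAGCTG, another E-box held by 16.4% of all windows, and the full cAMP response element TGACGTCA, held by 1.8%, were in none of the 4. These are matches of letters only, with no overlap between motifs, and their distance from the start was not weighed. A second Dcx window that overlaps the printed one held the same TATAAA match.

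The summed level of the 10 genes was close between the group means with all 6 libraries and higher in cKO than in control libraries without cKO replicate 2. Their summed level was 6335, 38.7 and 6661 CPM in cKO replicates 1 to 3, against 5837, 3912 and 2080 CPM in control replicates 1 to 3. Control replicate 3 was the lowest of the 5 deeper libraries. The group means were 4345 ± 3733 CPM in cKO libraries and 3943 ± 1879 CPM in control libraries (SD, n = 3 each), and the cKO mean was 6498 ± 231 CPM without replicate 2 (SD, n = 2). In bulk RNA, fewer cells of a type and less RNA per cell cannot be told apart.

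Markers of neurons were also lowest in control replicate 3 among the deeper libraries. The summed level of 20 neuron markers, none of them a member, was 6338, 3006 and 6084 CPM in cKO replicates 1 to 3 and 5694, 4860 and 1762 CPM in control replicates 1 to 3. The member sum over the neuron marker sum was 0.9995 and 1.09 in cKO replicates 1 and 3, against 1.03, 0.805 and 1.18 in control replicates 1 to 3. The ratios of the groups overlapped. In cKO replicate 2 the ratio was 0.0129. There the neuron marker counts were 918 of Tubb3, 482 of Eno2 and 299 of Nefl out of 1709, while all 10 members together had 22 counts. Precursor markers, 21 genes in all, summed to 340, 7.04 and 326 CPM in cKO replicates 1 to 3 and to 462, 548 and 285 CPM in control replicates 1 to 3. Of 10 precursor markers tested without cKO replicate 2, 6 had a positive log2 fold change, where 47.9% of all genes tested did. Their median was 0.86 (0.11 over 9 tested with all 6 libraries). In the deeper libraries Pdgfra, Cspg4, Vcan and Ncan were higher in both cKO libraries than in every control, where 13.0% of all genes tested were. C1ql1 was lower, where 12.6% were (20.3 and 29.1 CPM in cKO replicates 1 and 3, against 92.0, 297 and 134 CPM in control replicates 1 to 3). C1ql1 alone held 297 of the 548 CPM of the precursor sum in control replicate 2. The part of neuronal or precursor cell content in the levels below was not tested.

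**Figure D1:**
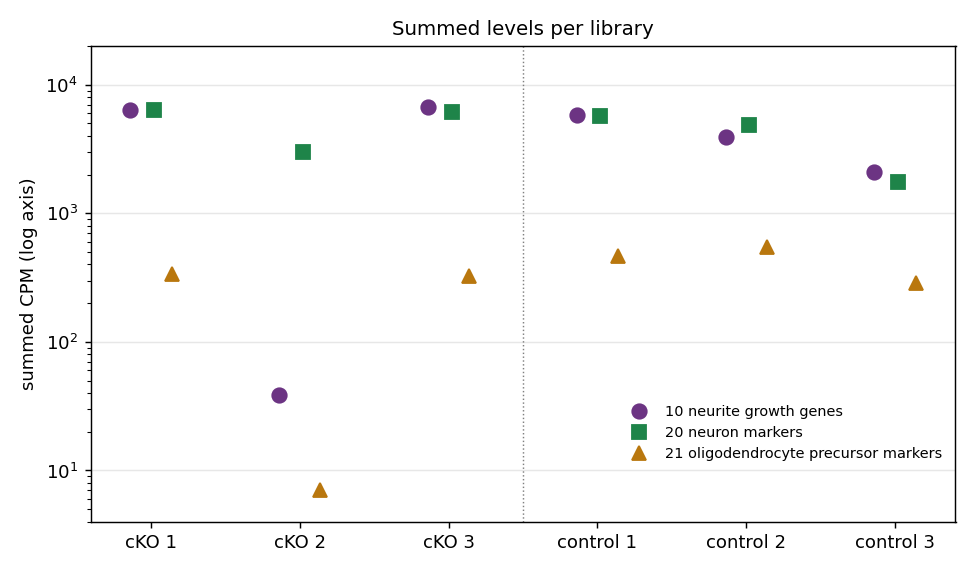
Summed CPM of the 10 neurite growth genes, of 20 neuron markers and of 21 oligodendrocyte precursor markers in each library, on a log axis. The 10 genes and the neuron markers lie close together in the 5 deeper libraries (between 1762 and 6661 CPM) and far apart in cKO 2 (38.7 and 3006 CPM).

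In cKO replicate 2 every member was at or near 0. Stmn2 had 8 counts there, Dcx 5, Gap43 4, Dpysl3 2, and Stmn3, Stmn4 and Map2 had 1 each. Stmn1, Map1b and Mapt had 0. For comparison, at its mean CPM over the 5 deeper libraries, Stmn2 would have had 965 counts at the depth of cKO replicate 2, Gap43 783 and Dpysl3 484. Of 5085 genes that would have had at least 20 counts there, 75.95% had less than 10% of that number, and so did all 9 members among them (Stmn1 was not). Tubb3, by contrast, was at 1615 CPM in cKO replicate 2.

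The stathmins were led by Stmn2, which encodes a membrane-bound stathmin of growing axons. Stmn2 (chromosome 3, 8574420 to 8626666, GRCm39) had 2144, 14.1 and 2225 CPM in cKO replicates 1 to 3, against 2389, 1399 and 331 CPM in control replicates 1 to 3. The deeper cKO libraries lay inside the control range, which spanned 7.22-fold, with control replicate 3 the lowest. The log2 fold change was 0.07 (SE 1.34) with all 6 libraries and 0.65 (SE 0.68) without cKO replicate 2, and the Benjamini-Hochberg adjusted p was 0.9999 in each case (two-sided quasi-likelihood test, edgeR).

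Stmn3, a relative of Stmn2 that is also anchored to membranes, had a narrower range in the deeper libraries. It had 238, 1.76 and 200.2 CPM in cKO replicates 1 to 3 and 197, 115 and 212 CPM in control replicates 1 to 3, and the groups overlapped. Control replicate 3, which was lowest for Stmn2, was the highest control library for Stmn3. The log2 fold change of Stmn3 was -0.23 (SE 1.48) with all 6 libraries and 0.35 (SE 0.35) without cKO replicate 2. Stmn4, the remaining membrane-bound stathmin, had 125, 1.76 and 143 CPM in cKO replicates 1 to 3 and 126, 148 and 41.1 CPM in control replicates 1 to 3. Its deeper cKO values lay within the control range, with a log2 fold change of -0.24 (SE 1.68) with all 6 libraries and 0.34 (SE 0.56) without cKO replicate 2. Stmn1, the soluble stathmin of dividing and young cells, was the lowest of the family as counted, with 8.05, 0 and 38.9 CPM in cKO replicates 1 to 3 and 4.47, 16.1 and 15.04 CPM in control replicates 1 to 3. It varied 4.83-fold between cKO replicates 1 and 3 alone, and its log2 fold change was 0.41 (SE 1.90) with all 6 libraries and 0.98 (SE 1.14) without cKO replicate 2. With the counts of Gm11223 added, Stmn1 would stand at 125.6, 0 and 114 CPM in cKO replicates 1 to 3 and at 102, 117 and 67.3 CPM in control replicates 1 to 3, near Stmn4, so its place in the family is not resolved.

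The balance within the stathmin family was similar in 4 of the deeper libraries, and control replicate 3 stood apart. Tags near the 3' end do not scale with transcript length, and counts of different genes were set side by side on that ground alone. The number of tags per transcript may still differ between genes, and Stmn1 may lose reads to Gm11223. Stmn2 made up 85.2% and 85.4% of stathmin counts in cKO replicates 1 and 3, against 87.9%, 83.4% and 55.3% in control replicates 1 to 3 (95% Wilson interval 54.2 to 56.4 in the last, counting error only). Stmn3 made up 9.48% and 7.68% in cKO replicates 1 and 3, against 7.24%, 6.83% and 35.4% in control replicates 1 to 3. Only 10 stathmin counts were seen in cKO replicate 2, 8 of them of Stmn2.

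**Figure D2:**
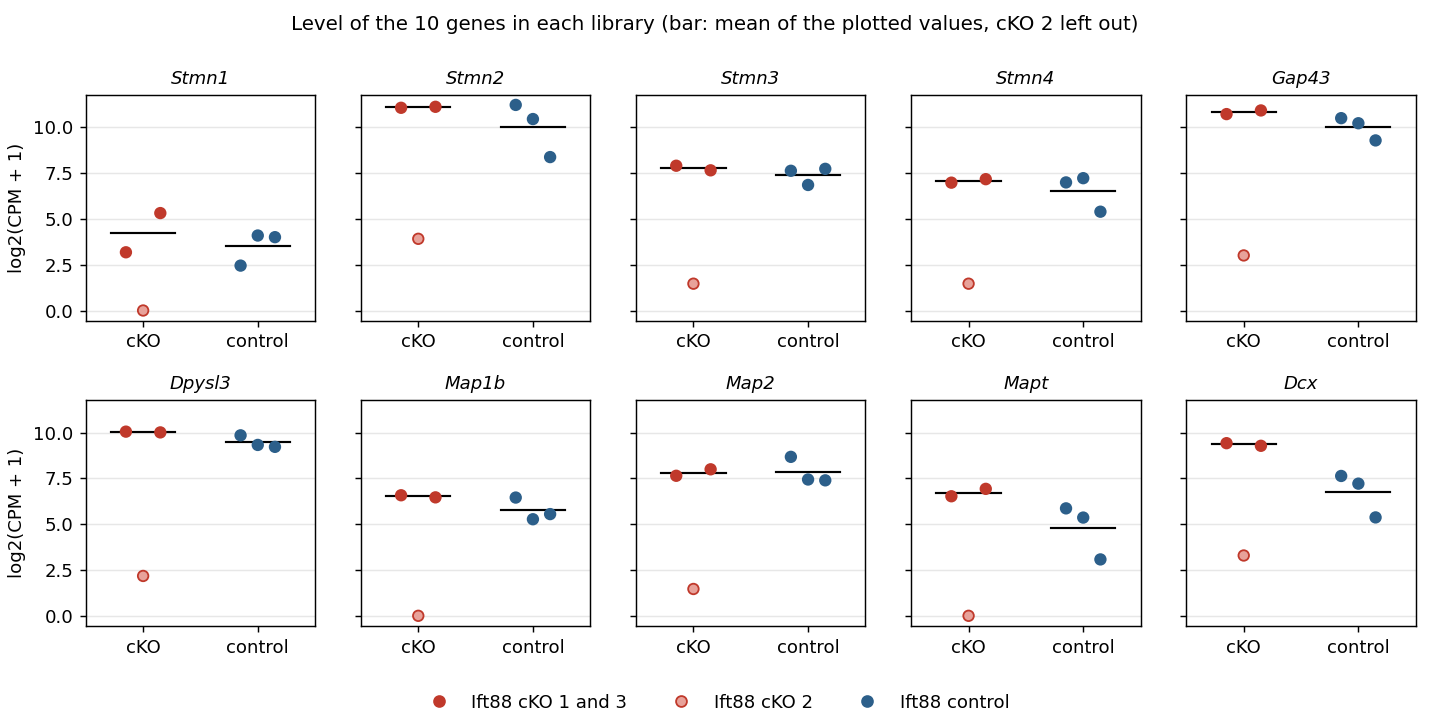
Level of each gene as log2(CPM + 1) by library, cKO left and control right; bars are means of the plotted values without cKO 2, which is shown as a pale point. Dcx, Mapt, Gap43, Dpysl3 and Map1b have both deeper cKO libraries above all 3 control libraries, while Stmn2, Stmn3, Stmn4, Stmn1 and Map2 overlap.

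The growth cone genes Gap43 and Dpysl3 were the most abundant members after Stmn2. Gap43 (chromosome 16, 42068805 to 42161014, GRCm39), which encodes a membrane phosphoprotein of growth cones, had 1688, 7.04 and 1939 CPM in cKO replicates 1 to 3, against 1447, 1194 and 623 CPM in control replicates 1 to 3. Both deeper cKO libraries were above every control library. Its log2 fold change was 0.14 (SE 0.67) with all 6 libraries and 0.73 (SE 0.38) without cKO replicate 2, with Benjamini-Hochberg adjusted p of 0.9999 and 0.772 (quasi-likelihood test, edgeR). Dpysl3, a collapsin response mediator that binds tubulin and actin, had 1062, 3.52 and 1032 CPM in cKO replicates 1 to 3 and 923, 642 and 597 CPM in control replicates 1 to 3. The gap between the lower of the deeper cKO libraries and the highest control library was small beside the control spread. Its log2 fold change was -0.04 (SE 0.77) with all 6 libraries and 0.54 (SE 0.29) without cKO replicate 2 (adjusted p of 0.9999 and 0.781, same edgeR test).

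Among the microtubule-associated proteins, Mapt and Map1b had both deeper cKO libraries above the controls and Map2 did not. Mapt, which encodes the axonal protein tau, had 91.2, 0 and 121 CPM in cKO replicates 1 to 3, against 57.3, 40.1 and 7.44 CPM in control replicates 1 to 3. Control values differed 7.70-fold, and the mean of cKO replicates 1 and 3 was 3.03 times the control mean, or 2.18 times that of control replicates 1 and 2. The log2 fold change of Mapt was 0.9973 (SE 1.755) with all 6 libraries and 1.58 (SE 0.77) without cKO replicate 2, with Benjamini-Hochberg adjusted p of 0.9999 and 0.767 in edgeR's test. Map1b, the earliest such protein in growing axons, had 94.7, 0 and 87.4 CPM in cKO replicates 1 to 3 and 86.7, 37.6 and 45.9 CPM in control replicates 1 to 3. The separation of Map1b rests on a margin of less than 1 CPM to control replicate 1, and its log2 fold change was 0.10 (SE 1.75) with all 6 libraries and 0.69 (SE 0.49) without cKO replicate 2. Map2, the protein of dendrites, had 199, 1.76 and 254 CPM in cKO replicates 1 to 3 and 408, 173 and 167 CPM in control replicates 1 to 3. Control replicate 1 was the highest library for Map2, above both deeper cKO libraries, and its log2 fold change was -0.72 (SE 1.36) with all 6 libraries and -0.15 (SE 0.46) without cKO replicate 2.

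Dcx (chromosome X, 142638838 to 142716307, GRCm39), the microtubule stabiliser of migrating young neurons, had the largest ratio of the 10 genes between the deeper cKO libraries and the controls. It had 686, 8.79 and 621 CPM in cKO replicates 1 to 3, against 198, 148 and 40.4 CPM in control replicates 1 to 3. The deeper cKO libraries differed by 1.10-fold from each other and lay above all controls, which spanned 4.89-fold. The mean of cKO replicates 1 and 3 was 5.08 times the control mean, or 3.79 times that of control replicates 1 and 2. With all 6 libraries the mean was 438 ± 374 CPM in cKO and 129 ± 80.3 CPM in control libraries (SD, n = 3 each), which edgeR's quasi-likelihood fit put at 1.75 on the log2 scale (SE 1.197, Benjamini-Hochberg adjusted p = 0.9999). Without cKO replicate 2 the log2 fold change was 2.33 (SE 0.60, unadjusted p = 0.00547, adjusted p = 0.767 by the same edgeR test). DESeq2 without cKO replicate 2 gave 2.36 (SE 0.59, adjusted p = 0.00649), in a comparison where it called 2.05% of 14562 genes. With all 6 libraries DESeq2 gave an adjusted p of 0.403 for Dcx. Dcx therefore passed in 1 of these 4 tests, and that call depends on leaving out cKO replicate 2 and on the choice of tool.

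Dcx was also a greater part of the 10-gene sum in the deeper cKO libraries than in any control, a measure that does not depend on how much of the library the sum took up. It was 10.8% and 9.32% of member counts in cKO replicates 1 and 3 (95% Wilson intervals 10.62 to 11.03 and 9.12 to 9.53, which cover counting error only and not the spread between pools), against 3.39%, 3.77% and 1.94% in control replicates 1 to 3 (3.26 to 3.51, 3.61 to 3.94 and 1.79 to 2.11). The Mapt share was 2.06 times and the Map2 share 0.537 times the control mean, also without overlap between the groups. The shares of the other 7 members overlapped. The two-sided exact permutation test used here takes 2 times the smaller tail, so with 2 against 3 libraries its smallest p is 0.2. These 3 shares reached that p (0.667 adjusted over the 10 shares), and no share could reach 0.05. In cKO replicate 2, 5 of 22 member counts were of Dcx.

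**Figure D3:**
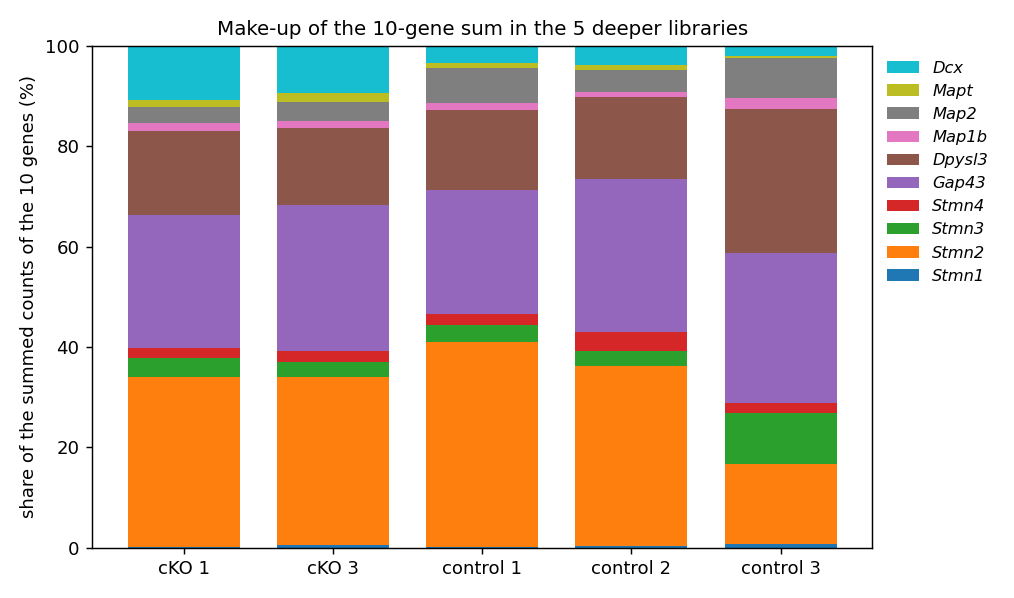
Share of each gene in the summed counts of the 10 genes, in percent, in cKO 1 and 3 and in control 1 to 3. The Dcx part is 10.8% and 9.32% in the cKO libraries and 1.94% to 3.77% in the controls, and control 3 has a smaller Stmn2 part than the other libraries.

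The order of levels was similar across the deeper libraries. Stmn2, Gap43 and Dpysl3 took the first 3 ranks in all 5, in that order except in control replicate 3, where Gap43 led and Stmn2 was the third. Dcx ranked 4 in both deeper cKO libraries and 5, 6 and 8 in control replicates 1 to 3. Map2, Stmn3 and Stmn4 lay between ranks 4 and 7. Map2 was above Stmn4 in each of the 5 libraries, while Stmn3 overlapped with both, so its place is not resolved. Map1b and Mapt took ranks 6 to 10, and Stmn1 was at rank 9 or 10 as counted, or between ranks 6 and 9 with the counts of Gm11223 added.

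Taking the 10 genes against all genes tested, no member passed edgeR's test. All 10 passed the filter on low counts. With all 6 libraries 0 of 10 had an adjusted p under 0.05 in edgeR, where 0.0156% of 12833 genes did (0.00779% higher and 0.00779% lower in cKO), and 0 of 10 had an unadjusted p under 0.05, where 2.83% did. In the 5 deeper libraries 0 of 10 had an adjusted p under 0.05, where 0.00687% of 14562 genes did, and 1 of 10 (Dcx) had an unadjusted p under 0.05, where 6.09% did. DESeq2 called 0 of 10 with all 6 libraries, where it called 0.039% of all genes, and 1 of 10 (Dcx) without cKO replicate 2, where it called 2.05%. With all 6 libraries DESeq2 gave no adjusted p for Stmn1, Stmn4, Map1b and Mapt, so these could not be called. A p that misses the threshold does not show that the groups were equal.

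By position alone, 5 of the 10 genes (Gap43, Dpysl3, Map1b, Mapt and Dcx) were higher in cKO replicates 1 and 3 than in every control library, where 13.0% of the 14562 genes tested were, and 0 of 10 were lower, where 12.6% were. Without control replicate 3 as well, 6 of 10 were higher (Stmn3 in addition), where 20.4% were. With all 6 libraries 0 of 10 were higher, where 1.33% were, since cKO replicate 2 was lower than the controls for every member, and likewise 0 of 10 without control replicate 3 alone, where 2.25% were. The members share cells and libraries and are not independent of each other. Their median log2 fold change was 0.67 without cKO replicate 2, against -0.06 over all genes tested, and 0.09 with all 6 libraries, against -0.44 over all genes tested. The members' median was negative when cKO replicate 1 (-0.37), cKO replicate 3 (-0.35) or control replicate 3 (-0.12) was left out with cKO replicate 2 kept. Over all genes tested the medians in these fits were lower, at -0.82, -0.90 and -0.37 in the same order.

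**Figure D4:**
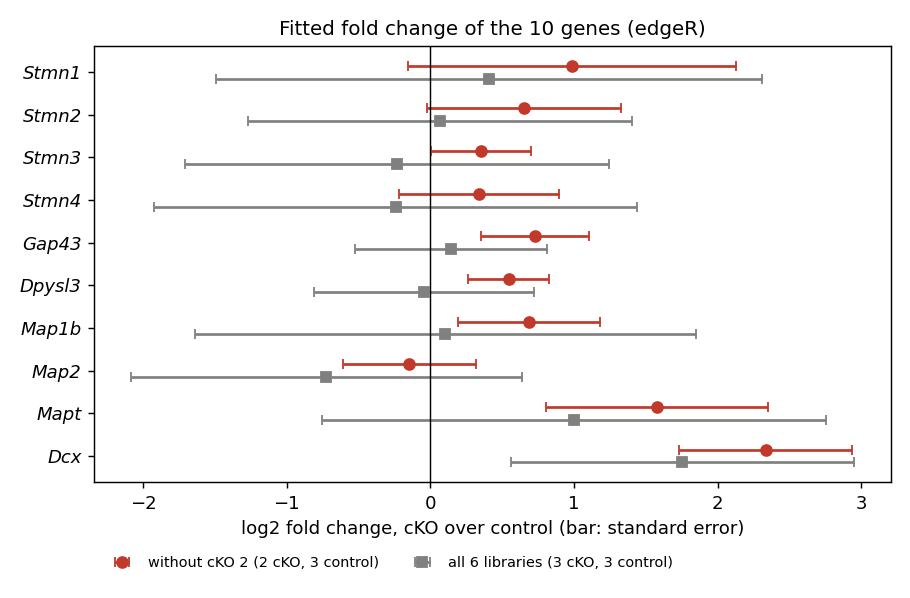
Log2 fold change, cKO over control, of each gene from edgeR, with its standard error, without cKO 2 (circles) and with all 6 libraries (squares). Without cKO 2 the values run from -0.15 (Map2) to 2.33 (Dcx), and the errors with all 6 libraries are wider for every gene.

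Relatives of the members in the same or related protein families had a positive log2 fold change without cKO replicate 2 in 11 of 12 cases, where 47.9% of all genes tested did. Of the 12 genes 0 passed in either comparison by edgeR's adjusted p, with a median log2 fold change of 0.04 with all 6 libraries and 0.57 without cKO replicate 2, and 5 of 12 were higher in both deeper cKO libraries than in every control (13.0% of all genes). Dpysl2, the founding collapsin response mediator, had 1802, 14.1 and 1706 CPM in cKO replicates 1 to 3 and 1145, 947 and 987 CPM in control replicates 1 to 3. Dpysl5, another of that family, had 131, 0 and 136 CPM in cKO replicates 1 to 3 and 72.6, 54.4 and 70.3 CPM in control replicates 1 to 3. Their unadjusted p without cKO replicate 2 was 0.00933 for Dpysl2 and 0.0196 for Dpysl5, with an adjusted p of 0.767 for each (edgeR). Both were picked for these values after they were seen. Marcks, a membrane protein related in function to Gap43, had 1371, 134 and 1645 CPM in cKO replicates 1 to 3 and 1711, 1764 and 1324 CPM in control replicates 1 to 3, and the groups overlapped. Map1a, the later relative of Map1b, had 29.9, 0 and 6.71 CPM in cKO replicates 1 to 3 and 3.88, 1.10 and 4.94 CPM in control replicates 1 to 3.

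Of 29 other microtubule regulators 27 were tested with all 6 libraries and 28 without cKO replicate 2, and 0 passed. Their median log2 fold change was 0.25 and 0.70. The 2 genes with the smallest p in the comparison of all 6 libraries had their highest level in cKO replicate 2. Tppp3, which encodes a tubulin polymerisation promoting protein, had 37.7, 1214 and 42.9 CPM in cKO replicates 1 to 3 and 103, 121 and 36.9 CPM in control replicates 1 to 3. Ckap5, a microtubule polymerase, had 87.9, 821 and 48.2 CPM in cKO replicates 1 to 3 and 101, 15.7 and 47.0 CPM in control replicates 1 to 3. Tppp3 (690), Ckap5 (467) and Mapre1 (209), an end-binding protein, held nearly all of the 1372 counts of this list in cKO replicate 2.

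Of 23 other genes of growth cones and neurite growth, 21 were tested in each comparison and 0 passed. Their median log2 fold change was 0.36 with all 6 libraries and 0.67 without cKO replicate 2, and 9 were higher (13.0% of all genes) and 1 was lower (12.6%) in both deeper cKO libraries than in every control. Olfm1, a secreted neuronal glycoprotein, had 399, 222 and 512 CPM in cKO replicates 1 to 3 and 238, 96.3 and 59.7 CPM in control replicates 1 to 3. The values of Olfm1 did not overlap when cKO replicate 2 was left out, and its log2 fold change was then 1.78 (SE 0.57; 1.495 with SE 1.256 in all 6 libraries), with a Benjamini-Hochberg adjusted p of 0.767 in edgeR's test. Nfasc, an adhesion protein of axons, had 17, 0 and 52 counts in cKO replicates 1 to 3 and 10, 268 and 115 counts in control replicates 1 to 3. Sox11, a transcription factor of young neurons, had 183, 0 and 280 CPM in cKO replicates 1 to 3 and 61.8, 45.5 and 52.0 CPM in control replicates 1 to 3, and without cKO replicate 2 its fitted difference was 2.13 on the log2 scale (SE 0.35, adjusted p = 0.444, same edgeR test; 1.54 with SE 1.70 in all 6 libraries). It was named after its values were seen.

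A list of 24 genes held kinases and phosphatases that act on the members, with activators, scaffolds and upstream kinases of these. In each comparison 0 of 24 passed. The median log2 fold change of the list was 0.01 with all 6 libraries and 0.51 without cKO replicate 2. Without that library 21 of 24 had a positive log2 fold change (47.9% of all genes tested). Of the 24, 8 were higher (13.0% of all genes) and 0 lower (12.6%) in both deeper cKO libraries than in every control. Cdk5, a neuronal kinase that acts on tau and doublecortin, had 218, 1163 and 117 CPM in cKO replicates 1 to 3 and 175, 190 and 115 CPM in control replicates 1 to 3. Gsk3a, a kinase of tau, had 67.4, 711 and 121 CPM in cKO replicates 1 to 3 and 68.3, 39.5 and 86.1 CPM in control replicates 1 to 3. Both were highest in cKO replicate 2. RNA-binding and transcriptional regulators passed in 0 of 12 cases in each comparison, with a median of -0.37 and 0.20. Rcor2, a partner of the neuronal gene repressor REST, had 224, 3 and 668 counts in cKO replicates 1 to 3 and 909, 1301 and 102 counts in control replicates 1 to 3. Igf2bp1, an RNA-binding protein of fetal tissue, had 0, 0 and 128 counts in cKO replicates 1 to 3 and 0, 60 and 772 counts in control replicates 1 to 3.

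Markers of young neurons, the cells Dcx is best known from, had a negative median. Of 17 markers 12 were tested and 0 passed in either comparison, 5 of 12 had a positive log2 fold change without cKO replicate 2, and their median was -1.24 with all 6 libraries and -0.67 without cKO replicate 2. The 2 of them with an unadjusted p under 0.05 without cKO replicate 2 (edgeR) were both higher in cKO, Sox11 as given above and Igfbpl1, a marker of young neurons with 18.2, 0 and 146 CPM in cKO replicates 1 to 3 and 24.6, 9.09 and 18.3 CPM in control replicates 1 to 3. The values of Igfbpl1 overlapped between the groups, with cKO replicate 3 far above the rest. The 2 with the smallest p with all 6 libraries, Neurod1 and Neurod6, had negative log2 fold changes (-2.30 and -2.12). Neurod1, a transcription factor of young neurons, had 213, 1 and 341 counts in cKO replicates 1 to 3 and 524, 2282 and 87 counts in control replicates 1 to 3. Neurod6, a relative of it, had 296, 0 and 8 counts in cKO replicates 1 to 3 and 389, 734 and 199 counts in control replicates 1 to 3. Of the neuron markers 0 of 19 tested passed without cKO replicate 2, and their median was 0.27 with all 6 libraries and 0.64 without cKO replicate 2. Without that library 16 of 19 had a positive log2 fold change, where 47.9% of all genes tested did. Both deeper cKO libraries were above every control for 5 of them (13.0% of all genes). They were below every control for 2 (12.6% of all genes), which were Gad1 and Gad2. Gad1 and Gad2, which encode enzymes of GABA synthesis, were at or near 0 in cKO libraries: Gad1 had 0 counts in all 3 cKO libraries and 992, 901 and 61 counts in control replicates 1 to 3, and Gad2 had 0, 1 and 0 counts in cKO replicates 1 to 3 and 373, 299 and 1 in control replicates 1 to 3.

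Markers of other cell types differed between the libraries too. Astrocyte and radial glia markers, 13 genes, summed to 2809, 871 and 3034 CPM in cKO replicates 1 to 3 and to 3001, 7514 and 5326 CPM in control replicates 1 to 3. Choroid plexus and ependymal markers summed to 446, 46290 and 673 CPM in cKO replicates 1 to 3, almost all of it Ttr, and to 252, 125 and 23.4 CPM in control replicates 1 to 3. Vascular and meningeal markers summed to 5170, 1409 and 3778 CPM in cKO replicates 1 to 3 and to 1808, 3921 and 4984 CPM in control replicates 1 to 3. Markers of myelinating oligodendrocytes summed to 215, 588 and 208 CPM in cKO replicates 1 to 3 and to 173, 97.5 and 567 CPM in control replicates 1 to 3, with Mog, Mag, Mobp, Ermn, Opalin and Myrf at 0 in all 6 libraries. Microglia markers summed to 58.6, 679 and 60.7 CPM in cKO replicates 1 to 3 and to 36.0, 23.5 and 77.9 CPM in control replicates 1 to 3, with Cx3cr1, Tmem119, C1qa, C1qc, Ctss and Aif1 at 0 in all 6 libraries. Of these 5 lists and the precursor markers 0 genes passed in either comparison. Their part in the levels of the 10 genes was not tested.

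Genes with profiles like those of the members were sought among 6643 named genes that reached 20 counts in every one of the 5 deeper libraries. Likeness was the mean absolute difference between centred log2(CPM + 1) values over these 5 libraries, where 0 means the same profile. Nearest to Stmn2 were Smim15 (0.0924), Zfp428 (0.0962) and Vstm2a (0.104). Nearest to Gap43 were Elac1 (0.0680), Acot7 (0.0958) and Crmp1 (0.113), the last a relative of Dpysl3 with 927 and 1245 CPM in cKO replicates 1 and 3 and 1016, 786 and 364 CPM in control replicates 1 to 3. Nearest to Map1b were Ambra1 (0.0535), Grin2d (0.0702) and B3galnt1 (0.0856). Nearest to Dcx were Cacng7 (0.154), Ppp2r3a (0.195) and Ppfia3 (0.196). The members were not each other's closest matches: the nearest other member was Mapt for Dcx (0.338, rank 14), Dpysl3 for Map1b (0.188, rank 69), Dpysl3 for Gap43 (0.230, rank 110) and Gap43 for Stmn2 (0.411, rank 156). With 5 points, near matches are easily found among so many genes, and the distances are a description only.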

How the data were processed

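RNA of the 6 samples was made into QuantSeq 3' mRNA-Seq FWD libraries, per the labels' protocols, which read a tag near the 3' end. The deposited values are raw counts per gene from featureCounts 2.0.0 on Ensembl release 104 of GRCm39, per the file headers. The command names no strand option, so sense and antisense reads cannot be told apart. STAR, FastQC and DESeq2 are listed in the submitters' processing notes, with no version.

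Symbols came from a table that matched 52083 of 55416 identifiers. CPM used the total count of a library. Genes kept by filterByExpr (12833, or 14562 without cKO replicate 2) were scaled by TMM and tested two-sided with glmQLFit (robust) and glmQLFTest in edgeR 4.0.16 (R 4.3.3), without covariate, with Benjamini-Hochberg adjustment at 0.05. The SE is the log2 fold change over the square root of F. Groups were called not overlapping from CPM. Replicate numbers did not pair the samples. Alternatives are given with their effect in the closing section; DESeq2 was 1.42.0, limma 3.58.1, scipy 1.17.1 and matplotlib 3.10.9. The edgeR test was tested on simulated counts. It found every changed gene at a low dispersion and missed every one at the dispersion estimated from these data. A gene that did not pass may therefore still differ between the groups.

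The counts that genes would have at the depth of cKO replicate 2, and Stmn1 with its copy added, were computed after the data were seen. The members and lists were chosen with earlier results of these data known. The rule named all 10 members, Ift88, the 2 genes of each list with the smallest p in the comparison of all 6 libraries, and the 3 genes nearest in profile to Stmn2, Gap43, Map1b and Dcx. Some genes it selects are given only within the sums of their lists, and other named genes were chosen after their values were seen. Start regions came from RefSeq on GRCm38.p6, whose coordinates are not those of the counts.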

Additional observations from a re-analysis of the deposited data

How the results depend on the processing

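With all 6 libraries 2 genes passed, against 16 with RLE size factors, 0 with upper-quartile scaling (1152 at an unadjusted p under 0.05), 5 with DESeq2, 8 with limma-voom, 23 with no filter and 1 with the replicate number as a block (replicate block), and 1 to 7 when each library was left out in turn (7 without cKO replicate 1, 4 without cKO replicate 3 and 1 without any of the others). At 0.10 and with a filter of 5 CPM in 3 libraries the counts were 2 and 3. Without cKO replicate 2, 1 gene passed, against 298 with DESeq2 and 0 with limma-voom (1302 at an unadjusted p under 0.05), and 0 to 2 when each of the other 5 libraries was also left out, where a lone cKO sample is assumed to vary like the controls. No member passed under any of the 13 alternatives with all 6 libraries, though DESeq2 gave no adjusted p there for Stmn1, Stmn4, Map1b and Mapt. Without cKO replicate 2, Dcx alone passed, and only with DESeq2 (2.36), in a range of adjusted p from 0.00649 to 0.748 over scaling, test and filter and from 0.404 to 0.978 when libraries were left out.

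The signs of Dcx, Mapt and Map2 held under the 13 alternatives with all 6 libraries, and those of the other 7 did not. Under the replicate block the log2 fold change turned to -0.26 for Stmn1, -0.57 for Stmn2, -0.68 for Gap43 and -0.91 for Map1b, and Map1b was -0.70 with limma-voom. Upper-quartile scaling gave 0.065 for Stmn3, 0.14 for Stmn4 and 0.0013 for Dpysl3, which was 0.0501 with RLE size factors and 0.0503 with DESeq2. When each library was left out, the values ran from -1.40 to 0.98 for Stmn1, -0.40 to 0.75 for Stmn2, -0.80 to 0.35 for Stmn3, -0.69 to 0.34 for Stmn4, -0.32 to 0.73 for Gap43, -0.51 to 0.54 for Dpysl3 and -0.39 to 0.69 for Map1b. Without cKO replicate 2 and another library they ran from -0.51 to 1.68 for Stmn1, -0.072 to 0.67 for Stmn4 and -0.39 to 0.44 for Map2. The cause of these reversals was not tested. Without cKO replicate 2, 5 of the 10 members were higher in every cKO than in every control library, where 13.0% of all genes tested were. The count was 6 without control replicate 3 as well, where 20.4% were, and 0 without control replicate 3 alone, where 2.25% were.

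Same-numbered samples had correlations of 0.0778, 0.0521 and 0.018 between their deviations from the group means, too low to pair them, although each cKO sample correlated best with the control of its own number, a hint from the data and not the design. The members' median log2 fold change was 0.09 with all 6 libraries, -0.69 with the replicate block, and -0.37 to 0.67 when each library was left out. Over all genes tested the median log2 fold change was -0.44 with TMM, -0.28 with RLE size factors and -0.01 with upper-quartile scaling. It was -1.23 with the replicate block, and ran from -0.90 to -0.06 when each library was left out. The mean member sum was 4428 CPM in cKO and 4054 CPM in control libraries with TMM library sizes. Without mitochondrial and ribosomal protein genes in the total it was 4499 and 4119 CPM. When a library was left out, it ran from 3187 to 6498 CPM in cKO and from 2996 to 4875 CPM in control libraries. Leaving 1 of 3 libraries out cannot move a mean by 1 SD, so the SD is no measure of stability here. In cKO replicate 2 a gene under 5.28 CPM can be missed, but 9 members were below 10% of the counts that their level elsewhere would give at its depth. Without it, 2 cKO libraries limit the comparison.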
